A study of Mus musculus with 5 samples.

Results

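The genes described here are Fshr, which encodes the receptor for follicle-stimulating hormone (FSH), and 7 genes for proteins that Sertoli cells secrete, Cst9, Cst12, Amh, Inha, Inhbb, Trf and Clu. They were chosen by symbol, and rows of the array table were matched to them through their RefSeq transcripts. Of the 8 genes, 7 had a row, 1 each, among 25631 rows that covered 17277 named genes. Cst12 had no matching row and is not analysed here.

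Whole testes of mice on postnatal day 9 gave the RNA for 5 single-colour NimbleGen arrays, to compare testes with a conditional deletion of the transcription factor gene Dmrt1 with a control. The groups were Dmrt1 KO with NGN-cre, Cre-positive (3 arrays), the control, Cre-negative and carrying the same NGN-cre label (1 array), and Dmrt1 KO with DHH-cre, Cre-positive (1 array). The labels do not spell out the drivers; mouse spermatogonia are known to transcribe Neurog3, and Sertoli cells Dhh. Further, the floxed allele, the strain and any pooling of animals are not given in the sources used here. No label says that the 3 NGN-cre arrays came from separate animals, so every test below measures only the spread between these arrays, which may be technical.

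Sertoli cells line the seminiferous tubule and nurse the germ cells. FSH from the pituitary binds FSHR on their surface, and the receptor signals through a stimulatory G protein, adenylyl cyclase and cyclic AMP. The immature Sertoli cell also makes anti-Mullerian hormone, which removes the Mullerian duct in the male fetus, and inhibin B, which lowers FSH secretion. It further delivers transferrin, an iron carrier, and clusterin, an extracellular chaperone, and it transcribes the cystatin-related gene Cst9, also called testatin.

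As a check of the labels, the intensity of Dmrt1 was 11847 for the control, 4884, 5644 and 5509 on the NGN-cre knockout arrays and 6416 on the DHH-cre knockout array, so every knockout array lay below the control. The sources used here do not place its probes inside or outside the deleted part. Of 16 Sertoli cell marker genes, such as Sox9, Wt1 and Gata4, 15 were measured. All 15 lay above the 95th percentile of olfactory receptor transcripts, a log2 intensity of 8.34, on every array, so Sertoli cell RNA was present in each sample. The same held for all 7 measured genes of the receptor and product set. Between arrays, the SD of log2 differences over all rows was 0.35 to 0.50 among the control and NGN-cre arrays and 0.58 to 0.67 between these and the DHH-cre array. The numbers in the array titles also separate the DHH-cre array from the rest. An array effect and the DHH-cre group therefore cannot be told apart.

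Fshr and Cst9 were the genes that differed most, and both were lowest with the DHH-cre deletion. Fshr stood at 20.8% and Cst9 at 8.49% of the control on the DHH-cre array, while in the NGN-cre knockouts they stood at 61.1% and 70.9% of it. Clu, for clusterin, lay in the same order at smaller size, at 77.4% and 50.6% of the control. Amh, Inha, Inhbb and Trf differed by less than 0.5 on the log2 scale in every comparison of groups, and none of them was called.

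Counted as a set, 6 of the 7 genes were lower in the NGN-cre knockouts than in the control and 7 of 7 were lower on the DHH-cre array. Their median log2 differences were -0.33 and -0.38, where all rows had medians of -0.02 and -0.02. Both comparisons use the same control array. Between the NGN-cre knockouts and the control limma called 0 of the 7 at a Benjamini-Hochberg adjusted p under 0.05, and 0% of all transcripts. At an unadjusted p under 0.05 stood 2015 transcripts (7.86% of all), Fshr among them, and a variance model with an intensity trend called 66 transcripts, none in the set. With the DHH-cre compared to the NGN-cre knockouts 2 genes were called, both lower, Fshr and Cst9, where 1.00% of all transcripts were called, 0.730% lower and 0.273% higher. The DHH-cre array and the control are 1 array each, so genes were counted there by size, when at least 2-fold apart and further apart than the NGN-cre arrays were among themselves. The same 2 genes were counted, where 10.4% of all transcripts were counted, 4.81% lower and 5.55% higher. The 3 NGN-cre arrays all lay below the control for 5 genes of the set, a pattern held by 28.8% of all rows, and the DHH-cre array lay below the other 4 for 4 genes, held by 29.1% of all rows. The share of all rows with both patterns was not counted.

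The promoters of Fshr and Cst9 are shown because these genes carry the differences, and that of Inha because its level was among the steadiest. Each is the 250 bases before the annotated start in RefSeq, build GRCm38.p6, written 5′ to 3′ on the gene's strand. Fshr lies at chr17:89200676-89200925 on the minus strand, Cst9 at chr2:148834897-148835146 on the plus strand and Inha at chr1:75507359-75507608 on the plus strand. Capitals mark matches to any of 6 motifs, described after the sequences.
Fshr: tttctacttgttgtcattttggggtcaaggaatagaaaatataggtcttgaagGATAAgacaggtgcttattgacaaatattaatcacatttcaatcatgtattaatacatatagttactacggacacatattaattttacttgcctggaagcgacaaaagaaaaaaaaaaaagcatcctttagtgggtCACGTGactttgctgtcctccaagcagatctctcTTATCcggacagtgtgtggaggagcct
Cst9: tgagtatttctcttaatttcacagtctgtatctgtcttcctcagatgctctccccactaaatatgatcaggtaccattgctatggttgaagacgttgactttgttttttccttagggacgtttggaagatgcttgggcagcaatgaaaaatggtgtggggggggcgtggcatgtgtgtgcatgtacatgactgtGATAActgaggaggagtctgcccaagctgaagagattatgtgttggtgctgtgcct
Inha: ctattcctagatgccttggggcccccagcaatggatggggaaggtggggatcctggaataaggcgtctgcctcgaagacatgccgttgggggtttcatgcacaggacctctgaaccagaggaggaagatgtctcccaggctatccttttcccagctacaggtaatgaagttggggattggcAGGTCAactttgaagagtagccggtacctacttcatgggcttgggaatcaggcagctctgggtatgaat

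The motifs were searched on both strands and are listed by their letters. They were CACGTG, an E-box of the kind bound by the USF factors, AGGTCA, a hexamer bound by nuclear receptors such as SF-1, TGACG, part of the cyclic AMP response element, GATAA, the core of GATA factor sites, AACAAT, a core of SOX sites, and ACATTGT, part of the site that DMRT1 prefers. The last pair can overlap, since the reverse complement of ACATTGT shares letters with AACAAT. The Fshr window held CACGTG from 61 to 56 bases before the start. In the rat and mouse, USF factors are known to bind an E-box of the Fshr promoter. Of 27025 RefSeq promoters, 6.05% held this motif in the same window. GATAA was found in Fshr, once on each strand, and in Cst9, once, against 23% of promoters, and AGGTCA in Inha against 13.8%. None of the 5 promoters given for the set, which also included Inhbb and Cst12, held TGACG (17.9% of promoters), AACAAT (9.65%) or ACATTGT (2.58%). These are matches of letters in one short window and do not show binding.

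Fshr is the gene through which the Sertoli cell hears FSH. Its intensity was 3528 in the control, 2061, 2249 and 2158 on the NGN-cre knockout arrays and 734 on the DHH-cre knockout array. The groups did not overlap: the control was highest, the 3 NGN-cre arrays lay close together and the DHH-cre array was lowest. All 3 NGN-cre arrays lay below the control in 28.8% of all rows, and the DHH-cre array below the other 4 in 29.1%. The share with both was not counted, so nothing is read from the order alone. Between the NGN-cre knockouts and the control the log2 difference was -0.71 (SE 0.21, 95% confidence interval -1.22 to -0.21), with 3 of 3 arrays below the control. Adjusted over all transcripts it was not called (limma, Benjamini-Hochberg adjusted p = 0.487, and 0.268 to 0.859 in the 11 alternatives tried). Against the NGN-cre knockouts, Fshr was 2.94-fold lower on the DHH-cre array (log2 -1.55, SE 0.21), and this difference passed (limma, Benjamini-Hochberg adjusted p = 0.0369). The call was lost without NGN-cre replicate 1 (adjusted p = 0.115) and without replicate 2 (adjusted p = 0.0539), with log2 differences of -1.59 and -1.52, and held in the other 9 alternatives. Against the control, the DHH-cre array was 4.81-fold lower (log2 -2.27), a comparison of 1 array with 1 that has no replicate check.

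Cst9 belongs to the cystatin family, whose classical members inhibit cysteine proteases, and is transcribed in the mouse in fetal Sertoli cells from the time of testis determination. Its intensity was 19740 in the control, 15872, 13472 and 12645 on the NGN-cre knockout arrays and 1675 on the DHH-cre knockout array. The NGN-cre arrays lay below the control (28.8% of all rows), and the DHH-cre array lay far below all others (lowest in 29.1% of all rows). The NGN-cre knockouts differed from the control by -0.50 on the log2 scale (SE 0.23, 95% confidence interval -1.06 to 0.05; limma, Benjamini-Hochberg adjusted p = 0.673). The DHH-cre knockout was 8.32-fold lower than the NGN-cre knockouts (log2 -3.06, SE 0.23; limma, Benjamini-Hochberg adjusted p = 0.0153). This call held in all 11 alternatives tried, at adjusted p from 2.23e-05 to 0.0342 and log2 differences from -3.13 to -2.81. Against the control the DHH-cre array was 11.8-fold lower (log2 -3.56). Among all 25631 rows this was the 21st lowest difference between those arrays, and that of Fshr was the 110th lowest.

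**Figure D1:**
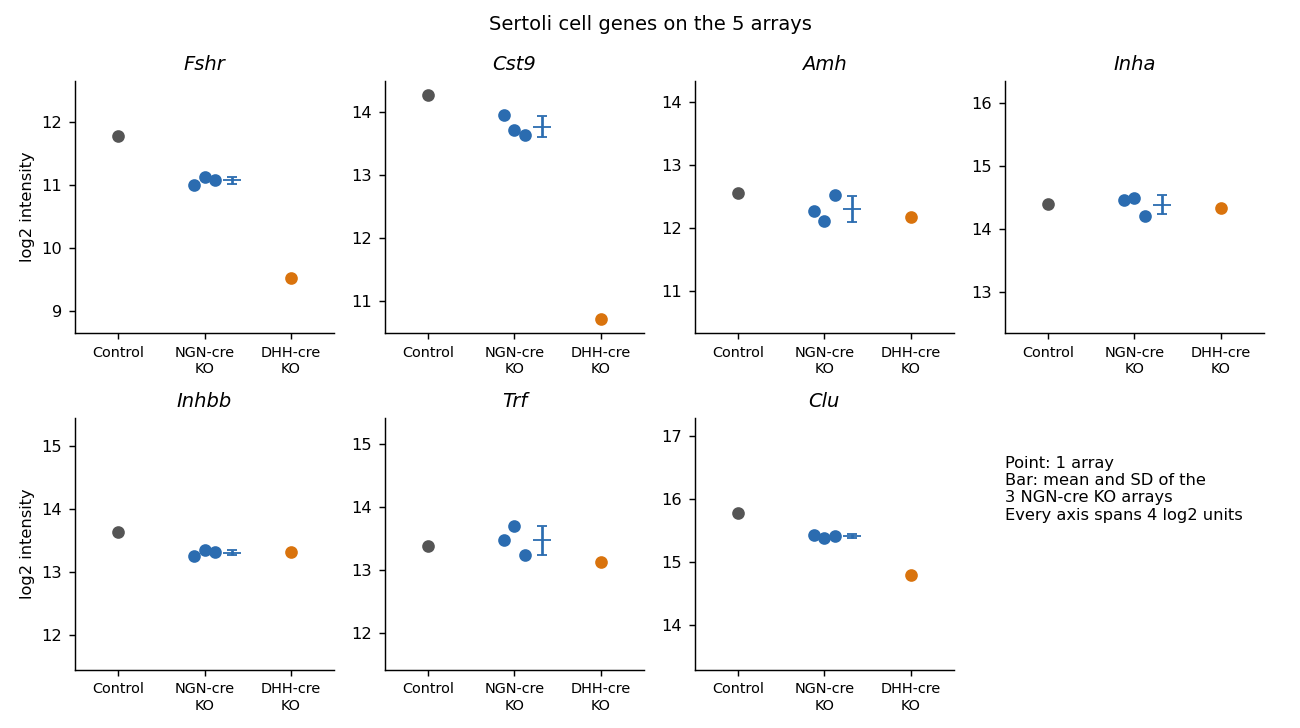
Log2 intensity of the 7 measured genes on each of the 5 arrays, with the mean and SD of the 3 NGN-cre knockout arrays beside their points; every vertical axis spans the same 4 log2 units. The DHH-cre array lies below all others for Fshr, Cst9, Trf and Clu, by far the most for Cst9 (10.71 against 13.63 to 14.27).

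Amh encodes anti-Mullerian hormone, a product of the immature Sertoli cell. Its intensity was 6001 in the control, 4925, 4400 and 5869 with the NGN-cre deletion and 4607 with the DHH-cre deletion. The control was highest, but NGN-cre replicate 3 lay close to it, and the DHH-cre value lay inside the NGN-cre range. The NGN-cre knockouts differed from the control by -0.26 (95% confidence interval -0.84 to 0.33; limma, Benjamini-Hochberg adjusted p = 0.86), and the DHH-cre from the NGN-cre knockouts by -0.13 (-0.71 to 0.46; adjusted p = 0.835).

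Inha and Inhbb encode the alpha subunit and the beta B subunit that join to form inhibin B. The intensity of Inha was 21746 in the control, 22606, 23075 and 19054 in the NGN-cre knockouts and 20700 for the DHH-cre knockout. The control and the DHH-cre array both lay inside the range of the NGN-cre arrays. Its differences were -0.02 for NGN-cre knockout against control (95% confidence interval -0.56 to 0.53) and -0.05 for DHH-cre against NGN-cre knockout (-0.60 to 0.49). These intervals leave out a change as large as that of Cst9 or Fshr on the DHH-cre array, under the assumption that the lone array varied like the NGN-cre arrays. Inhbb had intensities of 12744 in the control, 9809, 10401 and 10174 with the NGN-cre deletion and 10186 with the DHH-cre deletion. All 4 knockout arrays lay close together and below the control, and the DHH-cre value lay inside the NGN-cre range. All 3 NGN-cre arrays lay below the control in 28.8% of all rows. The NGN-cre difference from the control was -0.33 (95% confidence interval -0.83 to 0.17; limma, Benjamini-Hochberg adjusted p = 0.785), and the difference between the deletions was 0.01 (-0.49 to 0.51).

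Trf encodes transferrin, which Sertoli cells supply to germ cells behind the blood-testis barrier. Its intensity was 10561 in the control, 11379, 13247 and 9598 in the NGN-cre knockouts and 8939 for the DHH-cre knockout. The NGN-cre arrays lay on both sides of the control and had the widest spread of the set (SD 0.23 on the log2 scale), and the DHH-cre array was lowest. Neither tested difference was called: 0.10 for NGN-cre knockout against control (95% confidence interval -0.51 to 0.71) and -0.34 for DHH-cre against NGN-cre knockout (-0.95 to 0.27; limma, Benjamini-Hochberg adjusted p = 0.534).

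Clu encodes clusterin, a major secreted glycoprotein of Sertoli cells. Its intensity was 56008 in the control, 44043, 42411 and 43606 with the NGN-cre deletion and 28356 with the DHH-cre deletion. As with Fshr and Cst9 the groups did not overlap and stood in the order control, NGN-cre, DHH-cre. All 3 NGN-cre arrays lay below the control in 28.8% of all rows, and the DHH-cre array below the other 4 in 29.1%. The share with both was not counted, so nothing is read from the shared order. The NGN-cre arrays had the narrowest spread of the set (SD 0.03). The control value lay near the highest intensity on any array, 65166, and whether that compressed its differences was not tested. The NGN-cre difference from the control was -0.37 (95% confidence interval -0.87 to 0.13; limma, Benjamini-Hochberg adjusted p = 0.75). The DHH-cre knockout differed from the NGN-cre knockouts by -0.61 (SE 0.21, -1.11 to -0.11), not called after adjustment for all transcripts (limma, Benjamini-Hochberg adjusted p = 0.192). It was called once the variance model followed intensity (adjusted p = 0.0243), and in none of the other 10 alternatives. On the DHH-cre array Clu was 1.98-fold below the control, just short of the 2-fold limit of the size rule.

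**Figure D2:**
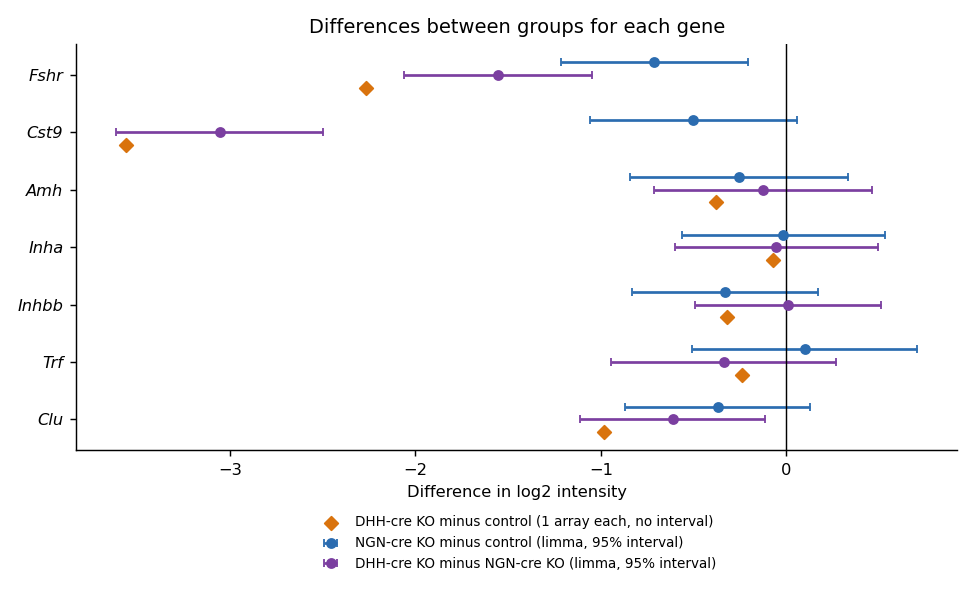
Differences in log2 intensity for the 7 genes: NGN-cre knockout minus control and DHH-cre knockout minus NGN-cre knockout with 95% confidence intervals from limma, and DHH-cre knockout minus control as diamonds with no interval, being 1 array each. Fshr and Cst9 lie far to the left in both comparisons that include the DHH-cre array, at -1.55 and -3.06 against the NGN-cre knockouts.

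Sertoli cell markers also lay mostly below the control, although limma called 0 of them, with 1 at an unadjusted p under 0.05 in each tested comparison. Of the 15 measured, 13 lay below the control for the NGN-cre mean and 13 on the DHH-cre array, with medians of -0.21 and -0.50, and 1, Sox8, was counted by the size rule at -1.08. The size rule counted 10.4% of all transcripts, 4.81% lower. The summed intensity of the Sertoli cell markers was 261947 in the control, 209299 to 248752 on the NGN-cre arrays and 199484 on the DHH-cre array. In whole testes fewer Sertoli cells, less RNA per cell and a larger share of RNA from other cells cannot be told apart. With each array centred on the mean of the Sertoli cell markers, Fshr and Cst9 still lay below the control on the DHH-cre array, at -1.79 and -3.08, and below the NGN-cre knockouts, at -1.31 and -2.81, both called. Clu then differed from the control by -0.50, while the others lay at or above it, with Amh at 0.10, Inhbb at 0.16, Trf at 0.24 and Inha at 0.41. This centring raised the median of all rows to 0.46 for the DHH-cre array and 0.22 for the NGN-cre knockouts, each against the control.

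Summed markers of other cells also stood away from the control, but such sums follow the brightest genes of a list. In the control, Nr5a2 made up 3802 of the granulosa sum of 5464 and Cdh1 3945 of the duct epithelium sum of 8070. Alas2 made up 1050.5 of the erythroid sum of 1314. Median log2 differences from the control were 0.28 for granulosa and 0.47 for duct epithelium markers in the NGN-cre knockouts. For erythroid markers on the DHH-cre array the median was -1.11. On the DHH-cre array the summed intensity of germ cell markers was 131% of the control, that of macrophage markers 143%, that of endothelial markers 82.6%, that of peritubular myoid markers 86.6%, that of erythroid markers 50.9% and that of duct epithelium markers 54.8%. On the NGN-cre arrays duct epithelium markers summed to 153% to 209% of the control, granulosa markers to 172% to 193%, macrophage markers to 134% to 179%, germ cell markers to 115% to 127%, endothelial markers to 111% to 122% and peritubular myoid markers to 104% to 111%. Erythroid markers summed to 89.8% to 135% and Leydig cell markers to 82.4% to 116% on those arrays. The erythroid marker Epb42 and the duct marker Crisp1 each lay below the olfactory receptor median of 5.24 on at least 1 array. Leydig cell markers summed to 96.9% and granulosa markers to 95.4% of the control on the DHH-cre array. The Leydig sum joins opposite differences, with 4 of 7 genes above the control and 3 below, at a median of 0.18. Hsd17b3 alone went from an intensity of 22500 in the control to 2305 on the DHH-cre array. Within the Leydig list Hsd17b3, a steroid enzyme gene that fetal Sertoli cells of the mouse also transcribe, was lower in the DHH-cre than in the NGN-cre knockouts (log2 -3.27; limma, Benjamini-Hochberg adjusted p = 0.0209). The granulosa list did not move one way: on the DHH-cre array Foxl2, a granulosa cell factor, stood at 2.07 against the control, while the nuclear receptor gene Nr5a2 stood at -0.46 and was the single gene of that list called between the deletions (log2 -1.48; limma, Benjamini-Hochberg adjusted p = 0.0465). Nor did the germ cell list: on that array 4 of its 10 genes were counted higher, from Stra8 at 1.01 to Tex101 at 1.66, and 2 markers of undifferentiated spermatogonia were counted lower, Zbtb16 at -1.03 and Gfra1 at -1.43. Of all transcripts, 5.55% were counted higher and 4.81% lower. Foxl2 was dim, at log2 6.86 in the control and 6.76 to 7.43 on the NGN-cre arrays. These values lie below the olfactory receptor 95th percentile of 8.34, so the size of its rise is uncertain. It was not called between the deletions. The part of the cell types in the differences of Fshr and Cst9 was not tested.

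Genes that act with the receptor and the products mostly did not pass. Limma called 0% of all transcripts for NGN-cre knockout against control and 1.00% between the deletions. In lists this short few or no calls would come at those shares, so nothing is read from their absence. In the lists below, counts by the size rule stand against 10.4% of all transcripts, 5.55% higher and 4.81% lower. Counts at an unadjusted p under 0.05 in the lists that follow stand against 18.3% of all transcripts between the deletions (4696 of 25631) and 7.86% for NGN-cre knockout against control, and nothing is read from them. Among 15 genes of FSH receptor signalling, from the stimulatory G protein gene Gnas to beta-arrestins, limma called 0 in either tested comparison, 2 having an unadjusted p under 0.05 between the deletions and 0 against the control. The median difference from the control was -0.07 in the NGN-cre knockouts and -0.24 on the DHH-cre array. The single gene counted by the size rule was Pde4b, a phosphodiesterase that degrades cyclic AMP, at -1.37 (limma against the NGN-cre knockouts, Benjamini-Hochberg adjusted p = 0.0844). Its intensity was 4010 in the control, 2996, 3933 and 4336 in the NGN-cre knockouts and 1553 for the DHH-cre knockout. The DHH-cre array was thus low for Pde4b, and the control lay inside the NGN-cre range.

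Of 11 genes of AMH signalling limma called 0, with 1 at an unadjusted p under 0.05 against the control and 2 between the deletions. The receptor gene Amhr2 differed from the control by 0.06 in the NGN-cre knockouts and 0.43 on the DHH-cre array. The single gene counted was Smad9, a receptor-activated SMAD, at -1.05, with a log2 intensity of 5.59 on the DHH-cre array, close to the olfactory receptor median, so its size is uncertain. In the inhibin and activin system 13 of 14 genes were measured, and limma called 1. Acvr1c, a type I receptor of the family also called ALK7, was higher in the DHH-cre than in the NGN-cre knockouts (log2 1.86; limma, Benjamini-Hochberg adjusted p = 0.03). Its intensity was 42.6 in the control, 32.8, 40.7 and 40.1 with the NGN-cre deletion and 136 with the DHH-cre deletion, and since the first 4 lie near the olfactory receptor level the size of this rise is uncertain. Inhba, the beta A subunit of activin A and inhibin A, was counted lower on the DHH-cre array at -1.07 against the control. Its intensity was 7608 in the control, 4425, 4413 and 7206 in the NGN-cre knockouts and 3632 for the DHH-cre knockout, so NGN-cre replicate 3 lay near the control and replicates 1 and 2 near the DHH-cre array.

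Among 11 genes of iron uptake and storage limma called 0. Steap3, an endosomal ferrireductase that acts after transferrin uptake, was the single gene at an unadjusted p under 0.05 in either tested comparison, and was counted higher on the DHH-cre array at 2.14. Its intensity was 250 in the control, 584, 398 and 515 with the NGN-cre deletion and 1099 with the DHH-cre deletion. Every knockout array thus lay above the control, where all 3 NGN-cre arrays did so in 25.7% of all rows. Against the NGN-cre knockouts the difference was 1.16 (limma, Benjamini-Hochberg adjusted p = 0.101). The transferrin receptor gene Tfrc differed from the control by 0.47 in the NGN-cre knockouts and 0.33 on the DHH-cre array. Of 4 clusterin receptor genes 3 were measured and limma called 0, with 1 at an unadjusted p under 0.05 in each tested comparison. Lrp8, a receptor for clusterin and reelin, was counted lower on the DHH-cre array, at -1.42. Its intensity was 3339 in the control, 1626, 1723 and 1504 in the NGN-cre knockouts and 1251 for the DHH-cre knockout. All knockout arrays thus lay well below the control, where all 3 NGN-cre arrays lay below it in 28.8% of all rows.

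Of 15 other secreted products of Sertoli cells limma called 0, with 0 at an unadjusted p under 0.05 against the control and 6 between the deletions (18.3% of all transcripts), and 3 were counted by the size rule. Defb19, a beta-defensin gene of the Sertoli cell, had intensities of 10078 in the control, 8486, 6375 and 6763 with the NGN-cre deletion and 3586 with the DHH-cre deletion, a DHH-cre difference from the control of -1.49. Serpina5, the protein C inhibitor, had 19311, then 14724, 13396 and 12969, then 6935 in the same order, a difference of -1.48. In both genes the groups stood in the order seen for Fshr, Cst9 and Clu and did not overlap. All 3 NGN-cre arrays lay below the control in 28.8% of all rows, and the DHH-cre array lay below the other 4 in 29.1%. The share of rows with both patterns was not counted, so nothing is read from the shared order. Against the NGN-cre knockouts the adjusted p values were 0.112 for Defb19 and 0.0894 for Serpina5 (limma, Benjamini-Hochberg). Il1a, which encodes the cytokine interleukin 1 alpha, was counted higher, at 2.12, from an intensity of 65.1 in the control to 283 on the DHH-cre array. The stem cell growth factor genes Gdnf and Kitl lay at -0.90 and -0.34 on that array and were not counted. Over all transcripts the size rule counted 10.4%.

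**Figure D3:**
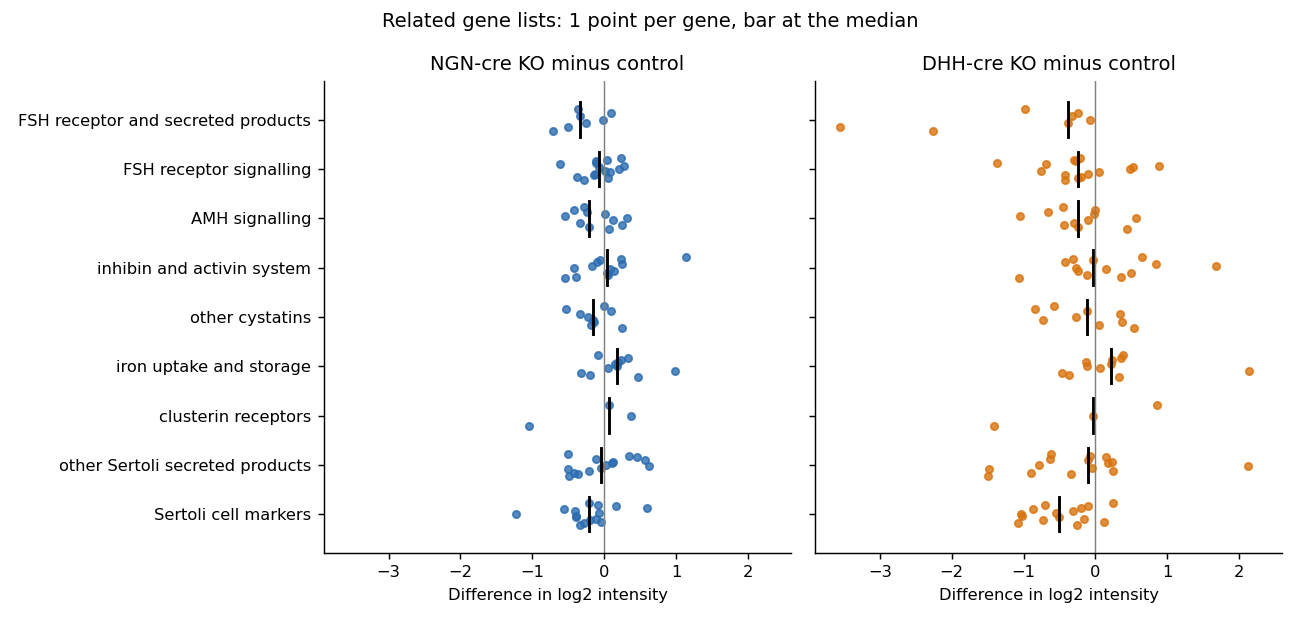
Difference in log2 intensity from the control for each gene (point) of the receptor and product set, of 7 related lists and of the Sertoli cell markers, for the NGN-cre knockouts (left, mean of 3 arrays) and the DHH-cre array (right), with black bars at list medians. In the right panel the points of Cst9 (-3.56) and Fshr (-2.27) lie below those of every other list shown.

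Cst9 lies within a run of cystatin genes on chromosome 2, and none of its measured cystatin neighbours fell as far below the control on the DHH-cre array. Several of them were too dim to show such a fall. Of 9 other cystatins limma called 0, with 0 at an unadjusted p under 0.05 against the control and 3 between the deletions (18.3% of all transcripts). The size rule counted 0, the largest differences being -0.84 for Cstl1 and -0.73 for Cst8, an epididymal and testicular cystatin. Cst3, the widely made cystatin C, stood at 0.54 and Cst13, next to Cst9 on one side, at -0.12. The genes Cstdc1 and Cstdc2 were outside the list and were noticed after their values had been seen. Against the control they stood at -1.57 and 1.76 on the DHH-cre array, further away than any of the 9 listed. Cstdc2, next to Cst9 on the other side, differed in the opposite direction, at 1.86 against the NGN-cre knockouts (limma, Benjamini-Hochberg adjusted p = 0.0332), and Cstdc1 stood at -1.33 there (adjusted p = 0.187). Cst10 and Cst13, with mean log2 intensities of 4.66 and 4.62, lay below the olfactory receptor median, so a difference in them may not be measurable. Cstl1, Cst11 and Cstdc2, at 6.73, 6.55 and 6.15, lay too near that median to show a fall as large as that of Cst9. The size of the rise of Cstdc2 is also uncertain at this level. Cst8, Cst3 and Cstdc1, at 11.91, 12.53 and 9.46, were brighter. Probes of similar cystatin genes may share signal, which was not tested.

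**Figure D4:**
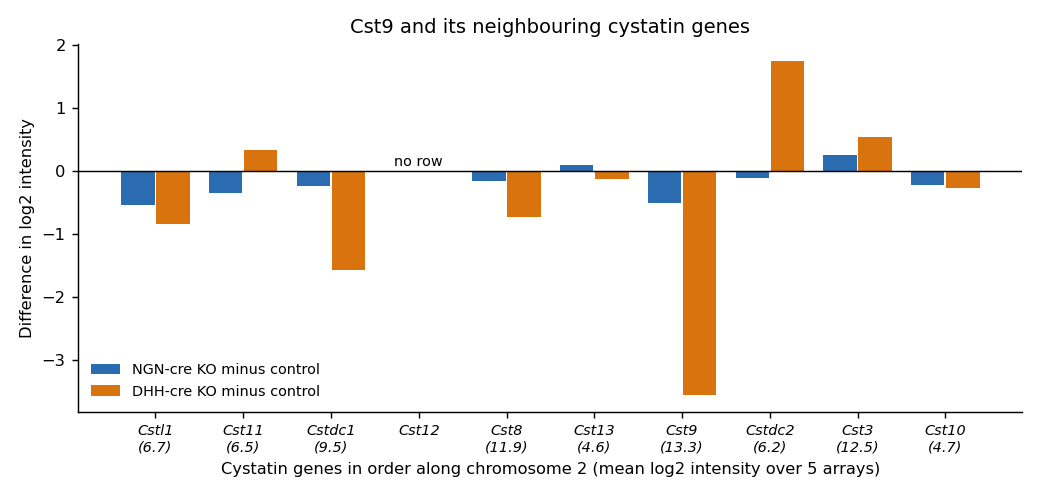
Difference in log2 intensity from the control for Cst9 and its cystatin neighbours in RefSeq order along chromosome 2 (equal spacing, not to genomic scale), for the NGN-cre knockouts (mean of 3 arrays) and the DHH-cre array (1 array); mean log2 intensity is in brackets and Cst12 has no row. Cst9 stands at -3.56 on the DHH-cre array while the brighter neighbours Cst8, Cst3 and Cstdc1 stand at -0.73, 0.54 and -1.57. Dim neighbours such as Cst13 and Cst10 could not show a fall of that size.

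To name genes with a like pattern, each gene's log2 values were centred on their mean over the 5 arrays, and the root mean square difference from Fshr or Cst9 was taken over all named genes. The closest to Fshr was Adcy2, an adenylyl cyclase, at 0.0839 log2 units, and others close to it were the tetraspanin gene Tspan8 (0.154), the semaphorin gene Sema3c (0.156) and the mucin gene Muc4 (0.162). Adcy2 had log2 intensities of 10.47 in the control, 9.88, 10.03 and 9.83 in the NGN-cre knockouts and 8.24 for the DHH-cre knockout. The closest to Cst9 were the transporter gene Slc47a2 (0.165), the zinc finger gene Zfp456 (0.181), Enpp2, which encodes autotaxin (0.20), the sulfatase gene Arsk (0.221) and the beta-defensin gene Defb36 (0.227). Enpp2 went from 12.08 in the control to 11.34, 10.92 and 11.17 in the NGN-cre knockouts and 8.17 for the DHH-cre knockout. Fshr ranked 64th in likeness to Cst9, and Cst9 ranked 2564th in likeness to Fshr, at 0.602 in both cases. With 5 arrays, 1 of which stands apart, the likeness is given as a description only.

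**Figure D5:**
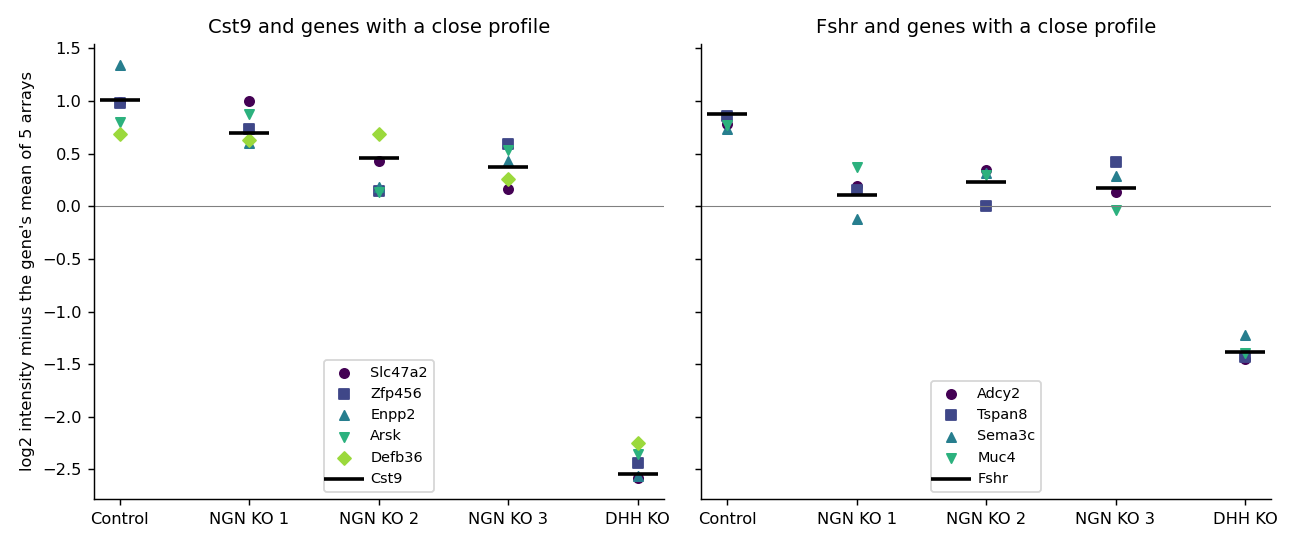
Log2 intensity minus each gene's mean over the 5 arrays for Cst9 (left) and Fshr (right), drawn as black bars, and for the genes named here as close to each, 5 for Cst9 and 4 for Fshr, drawn as points. In both panels the control is highest for the black bar, the NGN-cre arrays lie between, and the DHH-cre array is far lowest.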

How the data were processed

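RNA of whole testes was measured on 5 NimbleGen arrays (MM8 60mer design), per the labels. The values deposited by the authors are linear intensity values, 1 per RefSeq transcript and array, and RMA is named without a version in the submitters' processing notes; the probes behind each value are not given in the sources used here. Array medians lay between 721 and 730. No normalization, pseudocount or filter was added before taking log2. A RefSeq gene table of GRCm38.p6 gave symbols and gene order through unversioned transcript identifiers; 17780 rows had 1 symbol and 7851 none. A gene with several rows was represented by the row with the highest mean.

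The tests used limma 3.58.1 under R 4.3.3 (lmFit, eBayes, two-sided, Benjamini-Hochberg adjusted p under 0.05 over all 25631 rows), with 1 mean per group. The NGN-cre arrays alone supplied the 2 residual degrees of freedom, and each lone array was taken to vary as they do. With 3 arrays against 1, the smallest permutation p is 0.25. The DHH-cre array was not tested against the control; a gene was counted when at least 2-fold apart and further apart than the NGN-cre range. The number of arrays limits the precision.

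Members, lists and rules were chosen with earlier results of these data known. All members and Dmrt1 were named, with list genes called or counted in any comparison (up to 4 per list, otherwise the 2 largest differences) and the 5 profiles closest to Fshr and Cst9, of which 1 for Fshr is not reported here. Other genes, among them those that illustrate a list (Tfrc, Amhr2, Gdnf, Kitl, Cst3, Cst13 and Cst10, Hsd17b3, Foxl2, Nr5a2 and the germ cell genes), were named after their values had been seen. Alternatives changed the variance model, normalization, scaling, pseudocount, dim filter, row choice and replicates.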

Additional observations from a re-analysis of the deposited data

Results flagged for a closer look

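For 2 genes the difference from the control was not the same with the 2 deletions, by the direct test of DHH-cre against NGN-cre knockout. Fshr differed by -1.55 (limma, Benjamini-Hochberg adjusted p = 0.0369, 3 of 3 NGN-cre arrays above the DHH-cre array), and without NGN-cre replicate 1 or 2 it was no longer called (adjusted p = 0.115 and adjusted p = 0.0539). Cst9 differed by -3.06 (adjusted p = 0.0153, 3 of 3 arrays above). The DHH-cre group is 1 array, and an array effect and the group cannot be told apart. No group held the 4 arrays needed to look for an outlying array.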

How the results depend on the processing

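For DHH-cre against NGN-cre knockout, 2 genes of the set were called, and leaving out each NGN-cre array gave 1 to 2, Cst9 remaining in every case and Fshr being lost without replicate 1 or replicate 2. An intensity trend gave 3, with Clu added. NGN-cre knockout against control stayed at 0 called in the 11 alternatives, and the size rule stayed at 2 in the 10 run. Directions reversed for small, uncalled differences only. With arrays centred on the Sertoli marker list, Inha moved to 0.22 in the NGN-cre knockouts against the control, and Amh to 0.12 and Inha to 0.19 between the deletions. When NGN-cre arrays were left out in turn, Inha ranged from -0.0673 to 0.0708 and Trf from -0.0151 to 0.2173 against the control, and Inhbb from -0.0143 to 0.028 between the deletions. The cause was not tested.

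Over all transcripts, counts moved more. Calls for NGN-cre knockout against control went from 0 to 66 with an intensity trend, 70 with the Sertoli centring and 238 without replicate 3. Calls between the deletions went from 257 to 729 with a trend, 1032 with the Sertoli centring (764 higher and 268 lower, against 70 and 187), 38 without replicate 1 and 1321 without replicate 3. The size rule count went from 2654 (1422 higher and 1232 lower) to 4482 with the Sertoli centring (4083 and 399). Dmrt1 in the NGN-cre knockouts (log2 -1.15) had an adjusted p = 0.281, and adjusted p = 0.0368 with a trend (limma). No paired analysis was possible, since the control and the DHH-cre group hold 1 array each. The labels carry no replicate numbers, and those used here for the NGN-cre arrays follow the order of the samples. Signal near the olfactory receptor level limits the dim genes named.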
